A study of Mus musculus with 6 samples.

Results

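A set of 10 genes of epithelial cytokine signalling was examined in sorted ileal tuft cells. They comprise the cytokine genes Il25, Tslp, Il33, Il15, Il1a and Csf1, the receptor genes Il17rb, Il17ra and Il1rl1, and Tnfaip3, which encodes the NF-kB inhibitor A20. They are listed by name, without a threshold on their values, and all 10 were found among the 23420 genes of the expression table. RNA was sequenced in 6 libraries of 1 group, labelled as separate mouse replicates. The mice carried the Gfi1b-eGFP allele on the C57BL/6J background and had no other treatment or allele named in the labels, and the study used mice between 6 and 12 weeks of age. The sort kept living (PI-) epithelial (EpCam+, CD45-) cells that were GFP+, where GFP is expressed from the locus of Gfi1b, a transcription factor gene active in tuft cells. A GFP- fraction was not analysed here, so genes could be compared within a library but not between tuft cells and the remaining epithelium. Expression was given as TPM, each gene's share of 1000000 transcripts, corrected for transcript length, so that levels of different genes can be set side by side where reads cover whole transcripts. The methods describe such a full-length protocol, but the labels also name a preparation from the 3' end, for which the correction would raise short transcripts relative to long ones.

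Tuft cells are chemosensory cells of the epithelium, and those of the small intestine are the known epithelial source of IL-25, a member of the IL-17 family. IL-25 binds a receptor made of IL-17RB and IL-17RA and acts on type 2 innate lymphoid cells, whose IL-13 drives epithelial progenitors towards tuft and goblet cells. TSLP and IL-33 are the other epithelial cytokines, often called alarmins, that activate type 2 responses. TSLP signals through a receptor of CRLF2 and the IL-7 receptor chain, and IL-33 through ST2, the product of Il1rl1, together with the IL-1 receptor accessory protein.

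The sorted cells held the transcripts of their label. Of 14 tuft cell markers, 13 were in the table and all 13 were above 0 in every library, with summed levels of 4781 to 7770 TPM (median 5336). The 5 general epithelial markers were likewise above 0 throughout, Epcam at 1005 to 2057 TPM. Transcripts of other epithelial cells were present as well. Summed levels were 4089 to 26976 TPM for 7 Paneth cell genes, 1053 to 5118 TPM for 7 goblet cell genes and 2551 to 5638 TPM for 8 enterocyte genes. The 9 enteroendocrine genes summed to 379.2 to 536.5 TPM, of which Sct alone had 331 to 474 TPM. Besides Sct, only Chga and Chgb of these genes were above 0 in every library. Among lymphoid markers, Ptprc, the gene of the CD45 used to exclude cells, had 74.2 to 170.8 TPM, while the other 8 markers in the table summed to 4.58 to 28.8 TPM and Il7r and Klrg1 were listed at 0 in every library. Of 10 myeloid and mast cell markers, Kit had 100.2 to 157.5 TPM and the other 9 summed to 8.72 to 36.2 TPM. The 10 stromal and endothelial markers summed to 75.4 TPM in replicate 5 and to 0.87 to 12.2 TPM elsewhere. The part of these cells in the values of the 10 genes was not tested. TPM keeps no sequencing depth, so no counting error or detection limit can be given, and in bulk RNA fewer cells of a type and less RNA per cell cannot be told apart. The ribosomal RNA precursor Rn45s took 23.1% to 32.6% of the TPM, and the unnamed gene model Gm20594 took more in replicates 4 to 6 than in replicates 1 to 3 (51804 to 56441 against 15588 to 21283 TPM).

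Il17rb had the highest level, followed by Il25 and Tslp, then Tnfaip3 and Il17ra, and these 5 genes each averaged at least 10 TPM, against 29.8% of all genes. Il15, Csf1, Il1rl1 and Il33 lay far lower, and Il1a was listed at 0 in all 6 libraries, as were 32.9% of all genes. Above 0 in every library were 6 of the 10 genes, namely Il25, Il17rb, Il17ra, Tslp, Il1rl1 and Tnfaip3, against 47.2% of all genes in the table. Il33, Il15 and Csf1 were at 0 in some libraries.

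**Figure D1:**
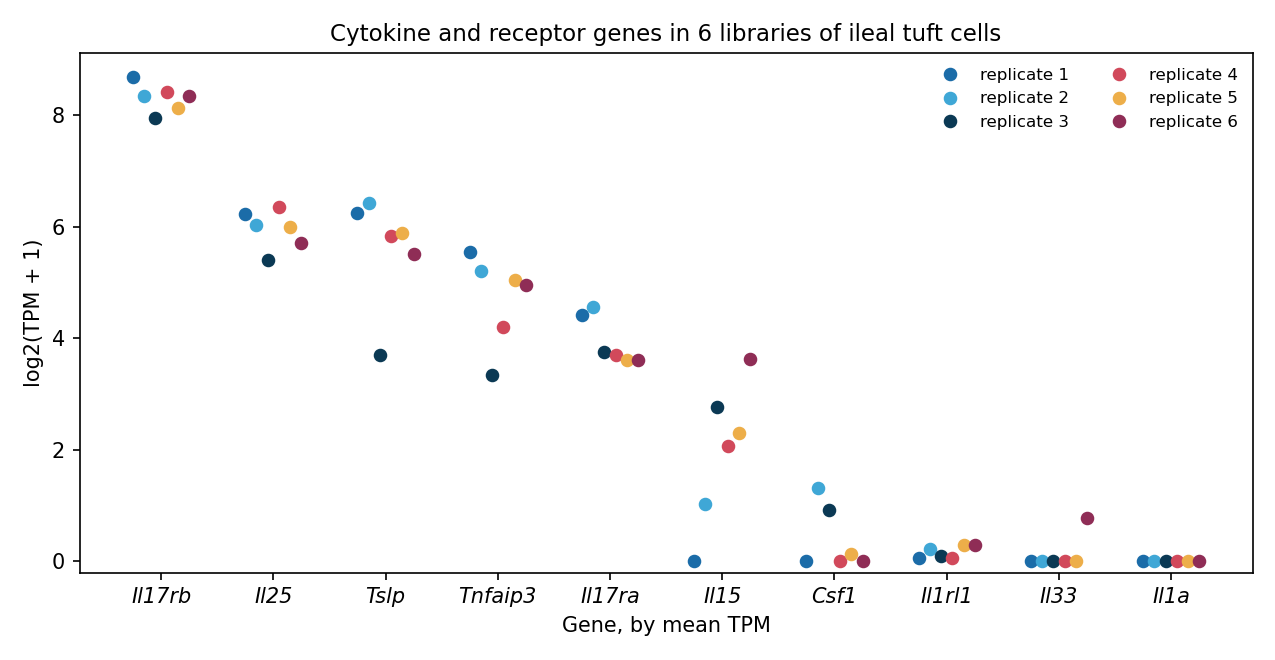
Level of each of the 10 genes in each library, on the log2(TPM + 1) scale, with genes ordered by mean TPM and 1 point per library coloured by replicate. Il17rb lies highest in every library, Il25 and Tslp overlap except for Tslp in replicate 3, and Il33 and Il1a lie at 0 with the exception of Il33 in replicate 6.

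Among the ligands, Il25 read 73.9, 64.7, 41.4, 80.8, 62.5 and 51.1 TPM across replicates 1 to 6. The mean was 62.4 ± 14.5 TPM (SD, n = 6), and the highest library exceeded the lowest 1.95-fold. Il25 lay above 79.3% to 90.8% of the genes listed above 0 in the same library. Its gene (ENSMUSG00000040770.5) spans 54932695 to 54935837 on the plus strand of chromosome 14 in GRCm38, with 3 exons and a transcript of 1064 nucleotides, and no other annotated gene overlaps it.

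Across replicates 1 to 6, Tslp read 75.1, 84.8, 12.01, 56.4, 58.1 and 44.4 TPM. This averages 55.1 ± 25.6 TPM (SD, n = 6). Replicate 3 was low and the other 5 libraries lay between 44.4 and 84.8 TPM, within the range of Il25 or close to it. Tslp lay above 83.8% to 89.8% of expressed genes in those 5 libraries and above 51.4% in replicate 3. On chromosome 18 the gene (ENSMUSG00000024379.4, 5 exons, a transcript of 1126 nucleotides) lies within the long non-coding gene 4930455D15Rik of the opposite strand, which was listed at no more than 0.11 TPM in any library. Set against Il25 in the same library, Tslp was higher in replicates 1 and 2 and lower in replicates 3 to 6. The difference, Il25 minus Tslp, was 0.35 ± 0.73 on the log2(TPM + 1) scale (SD, n = 6), within the spread between libraries (p = 0.3125 by the two-sided exact permutation test that flips signs, adjusted p = 0.375 over 6 comparisons). Replicate 3 carried most of it, with 3.45 times as much Il25 as Tslp, whereas the ratio of Il25 to Tslp was 0.763 to 1.43 in the other libraries. Without replicate 3 the mean difference was 0.08.

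Il33, in contrast, was listed at 0 in replicates 1 to 5 and at 0.72 TPM in replicate 6. Il25 exceeded Il33 in 6 of 6 libraries, by 5.82 ± 0.55 on the log2(TPM + 1) scale (SD, n = 6; exact permutation test, p = 0.031 and 0.0469 when adjusted). This p is the smallest that 6 libraries allow, and because Il33 was mostly at 0 the size of the difference is set by the pseudocount and is not a fold change. Stromal and endothelial cells are known sources of Il33, and their markers were highest in replicate 5, through Dcn at 59.4 TPM, where Il33 was at 0. In replicate 6, the only library with Il33, these markers summed to 1.16 TPM. Whether stromal cells had a part in the value of Il33 was not tested.

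The remaining ligand genes were low and uneven. Il15 encodes a cytokine that sustains intraepithelial lymphocytes, and it read 0, 1.05, 5.79, 3.19, 3.93 and 11.3 TPM across replicates 1 to 6. The goblet cell markers summed to 1155, 1053, 2495, 2324, 2986 and 5118 TPM in the same libraries, so that both were low in replicates 1 and 2 and highest in replicate 6. The 2 went opposite ways between replicates 1 and 2 and between replicates 3 and 5. The summed Paneth and enterocyte markers were highest in replicate 4 instead. The part of goblet or other epithelial cells in the values of Il15 was not tested. Csf1, which encodes the growth factor of macrophages, was listed at 0, 1.49, 0.89, 0, 0.09 and 0 TPM. Il1a, the gene of the alarmin IL-1α, had no library above 0.

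Il25 and Tslp were also the leading cytokine genes in a wider list. Of 64 cytokine ligand genes, all of which were in the table, 13 were above 0 in every library, 20 in some and 31 in none. Of all genes, 47.2% were above 0 in every library and 32.9% in none. Either Il25 or Tslp held rank 1 in each library, Il25 in 4 and Tslp in 2, and Tslp held rank 6 in replicate 3. The highest of the other 62 genes reached 15.2 to 25.6 TPM. Il25 took 28.0% ± 3.22 of the summed TPM of the list and Tslp took 23.8% ± 9.43 (SD, n = 6 each). Together they took 33.8% in replicate 3 and 44.7% to 62.5% in the other libraries. After them came Tnfsf13, the gene of the B cell factor APRIL, at 16.8 ± 6.12 TPM and Tnfsf10, the gene of the death ligand TRAIL, at 14.0 ± 3.28 TPM (SD, n = 6 each). Of the other 5 IL-17 family ligands, 4 were at 0 in every library and Il17c was at 1.00 TPM in replicate 4 alone.

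**Figure D2:**
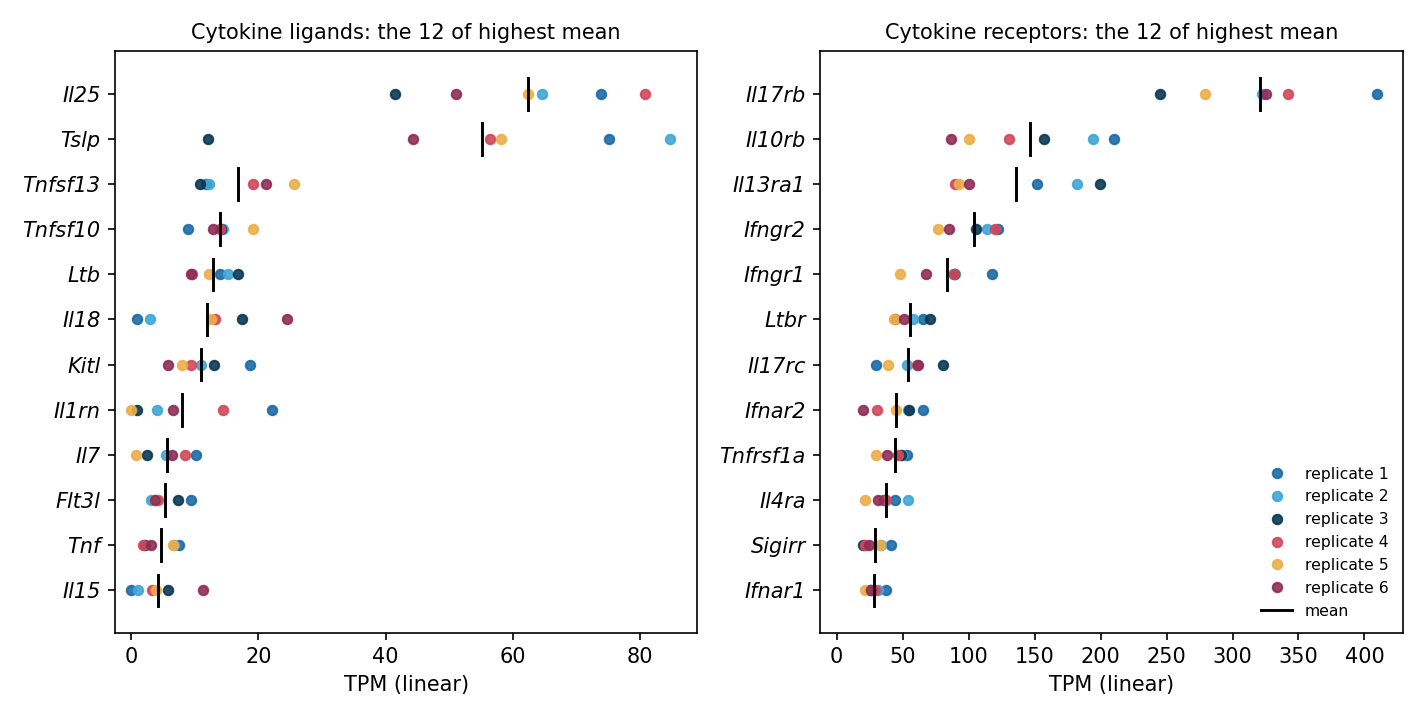
TPM on a linear scale of the 12 genes with the highest mean among 64 cytokine ligands (left) and among 56 cytokine receptors (right), with 1 point per library and a bar at the mean. Il25 and Tslp stand to the right of the other ligands in all libraries except for Tslp in replicate 3, and Il17rb stands to the right of the other receptors in the same library.

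Of the receptor genes, Il17rb, which encodes the chain that binds IL-25, read 409.3, 322.5, 244.8, 341.9, 279.4 and 325.4 TPM across replicates 1 to 6. The mean was 320.6 ± 56.2 TPM (SD, n = 6), and the libraries differed by up to 1.67-fold, less than for any other of the 10 genes that was above 0 in every library. Il17rb lay above 96.2% to 97.7% of expressed genes. It ranked 1 among 56 cytokine receptor genes in 6 of 6 libraries and took 26.7% ± 4.68 of their summed TPM (SD, n = 6). The next receptors were Il10rb, the shared chain of the IL-10 and IL-22 receptors, at 146.6 ± 49.8 TPM, Il13ra1, a chain of the IL-13 receptor, at 136.1 ± 48.5 TPM and Ifngr2 at 104.0 ± 19.0 TPM (SD, n = 6 each).

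Il17rb (ENSMUSG00000015966.17) spans 29996135 to 30008896 on the minus strand of chromosome 14 in GRCm38, with 11 exons and a longest transcript of 2094 nucleotides. Over 10220 bases it overlaps Actr8 of the opposite strand, which was listed at 3.52 to 16.7 TPM. The strand setting of the quantification is not given in the sources used here, so reads of exons shared by both genes cannot be assigned to a strand, but the level of Actr8 was far below that of Il17rb in every library. The 250 bases before its start site are shown because Il17rb was the most abundant of the 10 genes. They come from RefSeq (GRCm38.p6, chr14:30008897-30009146, minus strand) and are rich in C and G, at 72% of the bases.
Il17rb: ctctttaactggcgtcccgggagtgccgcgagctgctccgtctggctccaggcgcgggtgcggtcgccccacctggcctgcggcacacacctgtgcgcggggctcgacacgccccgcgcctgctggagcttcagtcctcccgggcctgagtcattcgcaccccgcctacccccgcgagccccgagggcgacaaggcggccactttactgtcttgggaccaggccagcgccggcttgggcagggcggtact
This window held neither ATTTGCAT, the octamer that POU family factors such as the tuft cell factor POU2F3 bind, nor GGAATTTCC, an NF-kB motif, on either strand.

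RefSeq promoter windows were found for 6 of the 10 genes, 9 windows in all, with none for Il25, Tslp, Il17ra or Il15. The octamer was present in 2 of the 9 windows, 1 of Il1rl1 and 1 of Il33, against 1.60% of 32851 windows of the same length over all genes. The NF-kB motif was present in 1, that of Tnfaip3, against 0.286% of all windows. They are shown over 30 bases with the motif in capitals, each on the strand of its gene, and a match of letters is no evidence of binding.
Il1rl1, chr1:40429523-40429552, plus strand: gtggcaactgtATTTGCATaaaactattag
Il33, chr19:29945692-29945721, plus strand: catatcgctccATTTGCATaactttactca
Tnfaip3, chr10:19015415-19015444, minus strand: tcacgtgactGGAATTTCCatcggaaatcc
The Il33 window belongs to a start site 20676 bases downstream of the first annotated start of the gene, and both genes that hold the octamer were at or near 0 TPM. The Tnfaip3 window belongs to a start site 247 bases downstream of the first annotated start, so the stretch shown lies within the annotated gene.

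Il17ra, the chain shared by the receptors of several IL-17 family cytokines, read 20.4, 22.5, 12.5, 11.97, 11.2 and 11.2 TPM across replicates 1 to 6 and averaged 14.96 ± 5.10 TPM (SD, n = 6). It was the only one of the 6 genes above 0 throughout whose values in replicates 1 to 3 and 4 to 6 did not overlap, and 16.9% of all genes above 0 throughout did so. These sets of libraries also differ in Gm20594, and no label separates them. Summed Paneth markers did not overlap between them either (4089 to 7529 against 8724 to 26976 TPM). The same held for enterocyte (2551 to 3475 against 3601 to 5638 TPM) and general epithelial markers (22330 to 31388 against 19138 to 20248 TPM). The other marker lists overlapped. The part of these cells in the values of Il17ra was not tested. Il17ra lies on chromosome 6 from 120463247 to 120487559, plus strand (ENSMUSG00000002897.5), with 13 exons and a transcript of 7752 nucleotides. Within a library, the TPM of Il17rb was 14.3 to 29.1 times that of Il17ra (median 22.5), a ratio between transcripts of unequal length that rests on the full-length protocol. The difference was 4.37 ± 0.37 on the log2(TPM + 1) scale (SD, n = 6), with Il17rb higher in 6 of 6 libraries (exact permutation test, p = 0.031 and 0.0469 when adjusted). The same difference averaged 4.08 ± 0.26 over the first 3 replicates and 4.66 ± 0.12 over the last 3 (SD, n = 3 each).

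Il17rb also exceeded its ligand gene. Its TPM was 4.23 to 6.37 times that of Il25 in the same library (median 5.26), and Il25 minus Il17rb was -2.36 ± 0.23 on the log2(TPM + 1) scale (SD, n = 6), with Il17rb higher in 6 of 6 libraries (exact permutation test, p = 0.031 and 0.0469 when adjusted). Of the other IL-17 receptor genes, Il17rc, which pairs with IL-17RA in the receptor of IL-17A, had 54.4 ± 18.1 TPM (SD, n = 6). It lay above Il17ra in 6 of 6 libraries. This order rests on the full-length protocol, since the transcript of Il17ra is long, at 7752 nucleotides. Il17re was listed at 4.68, 6.28, 4.30, 0, 0.14 and 0 TPM, and Il17rd at no more than 0.32 TPM. Of 12 genes listed for signalling downstream of IL-17 receptors, 11 were above 0 in every library, against 47.2% of all genes. These genes are not all particular to IL-17 receptors, as Traf6 and Map3k7 are also listed downstream of IL-1 receptors. Traf3ip2, the gene of the adaptor ACT1, had 19.6 ± 6.68 TPM. The most abundant on the list were Hspa4, a general chaperone gene, at 44.5 ± 6.82 TPM, Zc3h12a, which encodes an RNase that degrades cytokine transcripts, at 37.9 ± 5.92 TPM and Nfkbiz at 36.4 ± 8.91 TPM (SD, n = 6 each).

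Il1rl1, the gene of the IL-33 receptor ST2, read 0.04, 0.16, 0.07, 0.04, 0.23 and 0.22 TPM across replicates 1 to 6, and at most 5.70% of the expressed genes of a library lay below it. Il17rb exceeded it by 8.14 ± 0.31 on the log2(TPM + 1) scale in 6 of 6 libraries (SD, n = 6; exact permutation test, p = 0.031 and 0.0469 when adjusted). Because Il1rl1 was near 0, the pseudocount sets the size of this difference, which was 10.5 with a pseudocount of 0.1 and 11.5 with 0.01. ST2 is known from type 2 innate lymphoid cells and mast cells. Of the lymphoid cell markers, Il7r and Klrg1 were at 0 in all 6 libraries, Gata3 was at 0.20 TPM in replicate 5 alone and Rora reached 3.04 TPM in replicate 4. Of the mast cell markers, Kit was at 100.2 TPM or more in every library, Mcpt1 was above 0 in 4 libraries and reached 10.9 TPM, and Cpa3 and Fcer1a were at 4.86 and 6.06 TPM in replicate 4 and at 0 elsewhere. The part of these cells in the values of Il1rl1 was not tested. With a pseudocount of 1, Il33 and its receptor gene did not differ beyond the spread. Il33 minus Il1rl1 was -0.04 ± 0.28 (SD, n = 6, exact permutation test, p = 0.75 and 0.75 when adjusted). Il1rl1 was higher in replicates 1 to 5 and Il33 in replicate 6, and both were under 1 TPM. The pseudocount therefore sets the size of this difference as well. It was -0.58 ± 1.07 with a pseudocount of 0.1 and -2.44 ± 2.21 with 0.01 (SD, n = 6 each, exact permutation test, p = 0.25 and 0.0625).

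**Figure D3:**
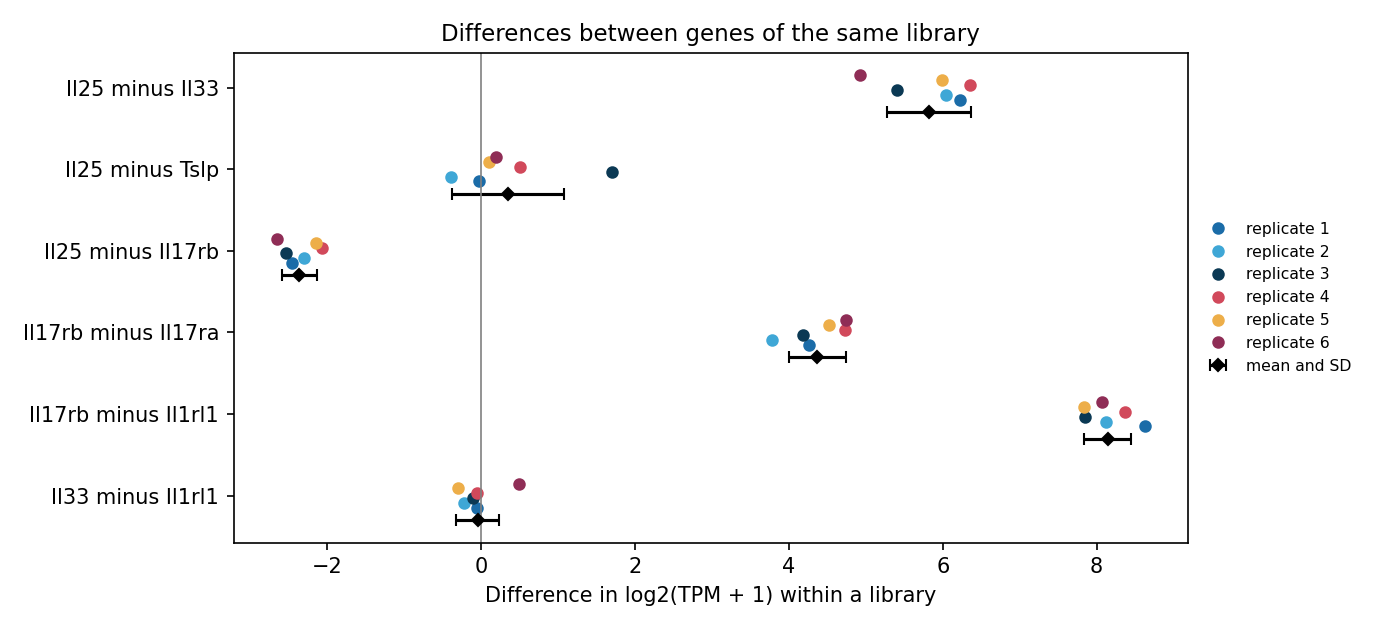
Difference in log2(TPM + 1) between the genes of 6 pairs within each library, with 1 point per library and a diamond with a bar for the mean and SD. The points of 4 pairs lie on 1 side of 0 in all 6 libraries, while those of Il25 minus Tslp and of Il33 minus Il1rl1 lie on both sides.

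Receptor partners of the other cytokines were sparse. Crlf2, the TSLP-binding chain, was above 0 in every library at 3.51 ± 1.70 TPM (SD, n = 6), whereas Il7r, its partner, was at 0 in all 6. Il1rap, the accessory chain of the IL-33 and IL-1 receptors, had 4.04 ± 3.36 TPM (SD, n = 6). The IL-1 receptor genes Il1r1 and Il1r2 were at 0 in all 6 libraries, and 6 of 10 genes of the IL-1 receptor family were, against 32.9% of all genes. Sigirr, which encodes an inhibitory member of that family, was its most abundant gene at 29.1 ± 8.24 TPM (SD, n = 6). Of 9 genes that act downstream of these receptors, 8 were above 0 in every library, against 47.2% of all genes. Irak1 had 34.6 ± 4.83 TPM and Myd88 had 26.6 ± 11.6 TPM (SD, n = 6 each). Among the 10 IL-1 family ligands, 2 were above 0 throughout and 5 were at 0 throughout, against 47.2% and 32.9% of all genes. Il18 was the most abundant, at 0.84, 2.96, 17.4, 13.1, 12.6 and 24.6 TPM across replicates 1 to 6. Il1rn, which encodes the IL-1 receptor antagonist, was listed at 22.2, 4.08, 0.92, 14.5, 0 and 6.62 TPM. Il15ra, which presents IL-15 to other cells, was listed at 1.13, 2.82, 2.12, 9.90, 15.4 and 16.5 TPM. The lymphocyte receptor chains Il2rb and Il2rg reached at most 2.29 and 6.09 TPM. Csf1r, the receptor of CSF1, was at 4.36 TPM in replicate 3, 3.10 TPM in replicate 6 and at most 0.06 TPM elsewhere, and Il34, the gene of its other ligand, was at 0 in every library.

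Tnfaip3, a target and inhibitor of NF-kB that limits signalling from TNF, IL-1 and IL-17 receptors, read 45.6, 36.1, 9.18, 17.4, 32.0 and 30.1 TPM across replicates 1 to 6. The mean was 28.4 ± 13.1 TPM (SD, n = 6), and replicate 3 was the lowest and replicate 1 the highest. It lies on chromosome 10 from 19000910 to 19015657, minus strand (ENSMUSG00000019850.11), with 9 exons in its longest transcript of 4422 nucleotides. Other genes of the NF-kB pathway and its feedback were expressed as well. Of 22 such genes, 21 were in the table and 19 of these were above 0 in every library, against 47.2% of all genes. Tax1bp1, an adaptor of A20, had 235.7 ± 40.7 TPM, Nfkbia, the gene of the inhibitor IκBα, had 213.3 ± 49.5 TPM, Relb had 40.3 ± 17.5 TPM and Tnip1, the gene of an A20-binding protein, had 30.4 ± 7.96 TPM (SD, n = 6 each).

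In the order of mean TPM, Il17rb and Il25, Tslp and Tnfaip3, Tnfaip3 and Il17ra, Il17ra and Il15, and Il15 and Csf1 differed on average by more than 1 SD of the difference within libraries. Il25 and Tslp did not, nor did Csf1 and Il1rl1, Il1rl1 and Il33, or Il33 and Il1a. For Il1rl1 and Il33 this depended on the pseudocount, as the mean difference passed 1 SD with a pseudocount of 0.01. Tslp was above Tnfaip3 in 6 of 6 libraries, by 0.88 ± 0.47 on the log2(TPM + 1) scale (SD, n = 6). Tnfaip3 was above Il17ra in 5 of 6, by 0.78 ± 0.69 (SD, n = 6), with replicate 3 as the exception. These neighbours were compared as a description, with no test.

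Replicate 3 was the lowest library for 4 of the 6 genes that were above 0 throughout, namely Il25, Il17rb, Tslp and Tnfaip3, against 15% of all genes above 0 throughout. Relative to the median of the 6 libraries, it held 0.756 of Il17rb, 0.652 of Il25, 0.296 of Tnfaip3 and 0.210 of Tslp. The 13 tuft cell markers summed to 4791 TPM there, close to 4781 TPM in replicate 5 and 4865 TPM in replicate 6, and 5 of the 13 were lowest in replicate 3. Replicates 5 and 6 had 58.1 and 44.4 TPM of Tslp. Per 1000 TPM of tuft cell markers, Tslp was at 2.51 TPM in replicate 3 and at 9.12 to 12.2 TPM in the other libraries. Tnfaip3 was at 1.92 TPM in replicate 3 and at 2.99 to 6.69 TPM in the other libraries, on the same relative scale. Il25 and Il17rb varied less on it, by 1.61-fold and 1.47-fold between the highest and the lowest library. This view was chosen after the values had been seen.

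**Figure D4:**
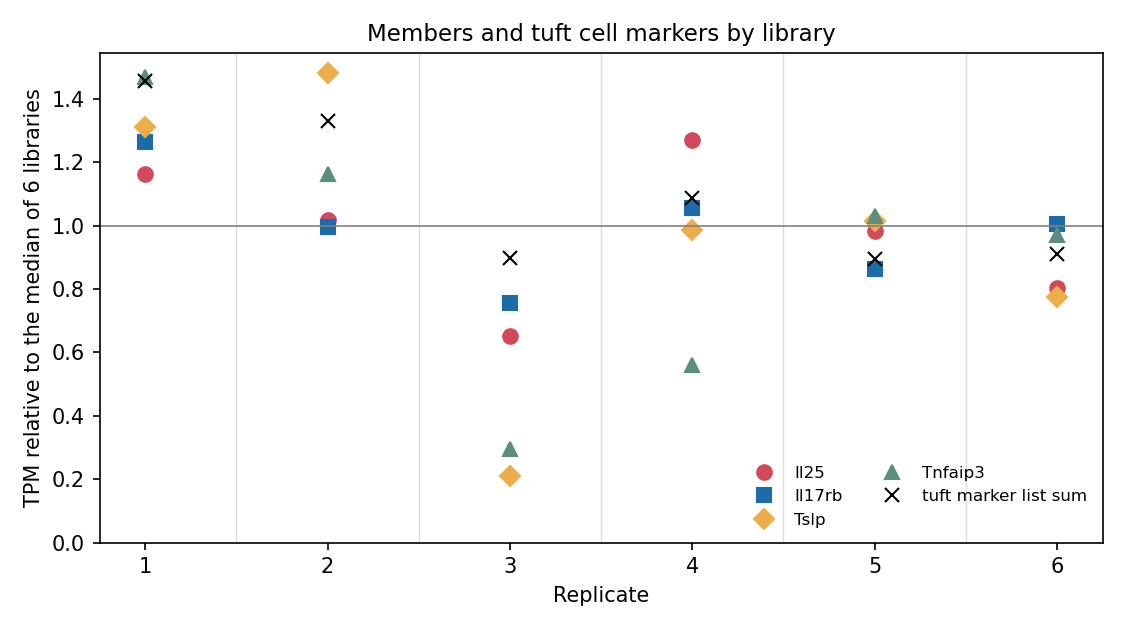
TPM of Il25, Il17rb, Tslp, Tnfaip3 and the summed tuft cell markers in each library, divided by the median of the 6 libraries, on a linear axis that starts at 0. In replicate 3, Tslp and Tnfaip3 lie at 0.210 and 0.296, well below the tuft cell markers at 0.898. Tnfaip3 is also low in replicate 4, at 0.559.

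Across the 6 libraries, the genes whose log2(TPM + 1) followed that of Il25 most closely, among 6936 other genes that averaged 10 TPM or more, were Ezr (Pearson r = 0.990), Strbp (0.985), Nfat5 (0.984), Pim3 (0.977) and Prss30 (0.977). Ezr encodes ezrin, which links actin to the membrane of microvilli, and had 160.0 ± 29.4 TPM (SD, n = 6). For Il17rb they were Rnf41 (0.982), Trp53bp1 (0.980), 2610507I01Rik (0.972), Vps53 (0.970) and Zfp276 (0.968). All 10 were lowest in replicate 3, as were Il25 and Il17rb. These are the highest of 6936 correlations over 6 points that share libraries and scaling, and they are given as a description.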

How the data were processed

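RNA of sorted tuft cells was measured in 6 libraries of 1 group. The authors prepared them by a modified SMART-Seq2 protocol; the labels name a 3' polyA and a droplet preparation as well. The authors aligned paired-end reads to the UCSC mm10 transcriptome with Bowtie and deposited expression as TPM from RSEM. The labels also list TopHat and DESeq2, which were not used here. TPM sums to 1000000 in each library and keeps no depth, so no count model was run. Columns were matched to replicates by number.

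Genes were compared within libraries as log2(TPM + 1) by flipping the signs of the differences in all 64 ways (exact permutation test, two-sided), with Benjamini-Hochberg adjustment over 6 comparisons and a threshold of 0.05. The labels number the replicates as mice and say nothing of pooling, and p-values measure the spread between these libraries. Alternatives were other pseudocounts, a low-value limit of 0.1 TPM, rescalings, the exact Mann-Whitney test, leaving out libraries, and replicates 1 to 3 and 4 to 6 alone. The genes, lists and comparisons were chosen with earlier results of these data known. Named are the 10 genes, their direct partners, the most abundant genes of each list and the 5 genes most like Il25 and Il17rb; Il18 and Il1rn, the other IL-17 receptors and single markers are given with their lists. Positions come from GENCODE M21 (GRCm38), matched by symbol, and promoters from RefSeq (GRCm38.p6). The scaling and tests were tested on simulated data. Scripts ran in Python 3.11.15 with scipy 1.17.1, pandas 2.3.3 and numpy 2.4.6, and figures in matplotlib 3.10.9.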

Additional observations from a re-analysis of the deposited data

Results flagged for a closer look

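By Dixon's ratio, the gap between the most distant library and its nearest neighbour divided by the whole range, 3 of 35 measures that varied between libraries passed the 95% critical value for 6 samples. For independent measures with normally distributed values, chance would place about 1 in 20 past it, or 1.75 of 35. The measures here share genes and some hold many zeros, so 1.75 is no expectation for them. Il33 was at 0.72 TPM in replicate 6 and at 0 in the other 5 libraries, a ratio of 1, which any value above 0 in 1 library alone would give. The difference Il33 minus Il1rl1 was 0.50 on the log2(TPM + 1) scale in replicate 6 and at most -0.06 elsewhere (ratio 0.695), which follows from the same value of Il33, and without replicate 6 its mean was -0.14. The summed stromal and endothelial markers reached 75.4 TPM in replicate 5 and at most 12.2 TPM elsewhere (ratio 0.847), and without replicate 5 their mean fell from 16.2 to 4.36 TPM.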

How the results depend on the processing

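The direction of the mean difference and the side of the 0.05 threshold by adjusted p were the same for all 6 comparisons under pseudocounts of 0.1 and 0.01, values under 0.1 TPM set to 0, both rescalings and the exact Mann-Whitney test. Pseudocounts and rescalings cannot change which gene of a library is higher, so the order kept under them shows no stability. Over these 6 alternatives the adjusted p was 0.00325 to 0.0469 for the 4 comparisons past the threshold, 0.3125 to 0.818 for Il25 with Tslp and 0.0571 to 1 for Il33 with Il1rl1. By the permutation test those 4 comparisons had the smallest p that 6 libraries allow. Their adjusted p of 0.0469 therefore depends on how many of the 6 comparisons reached it. As the comparisons were chosen with earlier results of these data known, passing 0.05 is no independent support for them. The Mann-Whitney test gave Il33 with Il1rl1 an unadjusted p of 0.0476 (exact), where the paired permutation test gave 0.75. The pseudocount moved sizes most for genes near 0, with Il25 against Il33 at 11.5 and Il17rb against Il1rl1 at 11.5 with 0.01. Il33 against Il1rl1 moved from -0.04 to -2.44 with 0.01. With each library left out the differences lay between 5.72 and 6.00 for Il25 against Il33, -2.42 and -2.30 for Il25 against Il17rb, 4.30 and 4.49 for Il17rb against Il17ra, 8.05 and 8.20 for Il17rb against Il1rl1, 0.08 (without replicate 3) and 0.50 for Il25 against Tslp, and -0.14 (without replicate 6) and 0.01 (without replicate 5) for Il33 against Il1rl1. No test was run on them, since 5 libraries allow no p under 0.0625. The count of genes above 0 in every library was 6, or 7 without replicate 1, and 5 reached at least 1 TPM in every library. The share of Il25 among cytokine ligands was 26.9% to 28.8% with a library left out and 28.1% without Tgfb1, Tgfb2, Tgfb3 and Il16. Rescaling without Rn45s and Gm20594 raised the means to 91.1 TPM for Il25, 467.3 TPM for Il17rb, 21.5 TPM for Il17ra and 41.6 TPM for Tnfaip3, beyond 1 SD, since it raises every value. No paired analysis was possible because the libraries form 1 group; the tests pair genes within a library. As depth is unknown, how far the zeros of Il33, Il1a, Il15 and Csf1 reflect shallow sequencing cannot be given.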
